A study of Homo sapiens with 30 samples.

Results

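The exons described here are those included less often in the second arm than in the first arm of a day 8 (D8) skipped-exon table. Where the day 0 (D0) table held them, they were not lower there by 10 points or more. They were chosen by their measured inclusion: an average of 20 or more junction reads in each arm's libraries, a mean difference of -20 points or lower on the percent inclusion scale, and every library of the second arm below every library of the first. Of 74089 events that met the read minimum, among 92068 in the D8 table, 294 met the other conditions, which is 0.397%. A further condition left out 101 of these, because the same exon with the same neighbours differed by -10 points or lower at D0. The remaining 193 events hold 181 distinct exons in 153 host genes. Of these events 48 were absent from the D0 table and stayed in. An event is 1 exon with 1 pair of neighbouring exons, so 11 exons are in more than 1 event and 22 genes hold more than 1 of the exons. Events of 1 exon share reads, and are not independent.

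The study took Hues6 cells, a human embryonic stem cell line that was either wild type (WT) or carried the label QKI knockout (KO), through differentiation to cardiomyocytes. Whole-cell RNA was sequenced at D0, day 4 (D4) and D8, and nuclear RNA at D8, with 3 libraries per genotype and day. At D4 and D8, WT cells had received the GSK3 inhibitor CHIR, an activator of the WNT pathway, at 1.5 uM and KO cells at 1.25 uM, and both had received BMP4 at 1.5 ng/mL. Genotype and CHIR dose cannot be told apart after D0. Other libraries came from 293T cells, a human embryonic kidney line, given an siRNA against QKI or a control siRNA, 3 of each. Whether libraries of 1 group were separate cultures, and how many clones the KO cells represent, is not stated in the labels, so p-values reflect only the spread among these libraries. The skipped-exon tables do not name their arms, and the arms are therefore called first and second.

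QKI is an RNA-binding protein of the STAR family that binds ACUAA-like sequences in introns and changes whether a nearby exon is kept. In muscle it is known for its part in splicing transcripts of the contractile and cytoskeletal apparatus. An exon is spliced in when the splicing machinery recognises both of its ends, and the last bases of the exon are part of the sequence recognised at its 5′ splice site.

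The sequences of 12 of the coding exons are shown, because they carry some of the largest losses, the shortest exons, or the losses also seen at D4. They were taken from the GENCODE release 29 transcripts on GRCh38, written 5′ to 3′ on the transcribed strand, with the last 3 bases, next to the 5′ splice site, in capitals.
SLC8A1, 15 nt, chr2:40174706-40174720, minus strand: gaaaatacctgtTTG
CLIP1, 33 nt, chr12:122351111-122351143, minus strand: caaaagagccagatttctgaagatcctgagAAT
CACNA1C, 60 nt, chr12:2597230-2597289, plus strand: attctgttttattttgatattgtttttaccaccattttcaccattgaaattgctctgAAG
AKAP13, 54 nt, chr15:85658537-85658590, plus strand: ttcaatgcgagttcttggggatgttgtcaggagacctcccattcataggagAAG
ACTN1, 81 nt, chr14:68878989-68879069, minus strand: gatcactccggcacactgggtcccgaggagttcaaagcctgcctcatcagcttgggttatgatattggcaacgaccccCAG
PPP3CA, 30 nt, chr4:101029166-101029195, minus strand: ctactgttgaggctattgaggctgatgAAG
FHOD3, 24 nt, chr18:36759118-36759141, plus strand: actgatgaggaggaggaagttGAG
RAPGEF6, 24 nt, chr5:131450023-131450046, minus strand: gaagaagaggtggcggagtctGGG
TRDN, 18 nt, chr6:123269849-123269866, minus strand: ccaagcccaaaccaaCAA
MYO5A, 9 nt, chr15:52348818-52348826, minus strand: gatgacAAG
TNNT2, 9 nt, chr1:201362386-201362394, minus strand: caggccCAG
GIT2, 90 nt, chr12:109945260-109945349, minus strand: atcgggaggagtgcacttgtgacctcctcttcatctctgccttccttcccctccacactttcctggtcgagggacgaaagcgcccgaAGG

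All 12 lengths are multiples of 3, so each of these exons adds or removes whole codons. The SLC8A1, CLIP1 and TRDN exons end in TTG, AAT and CAA. Over the set, 129 events with 126 exons could be matched to a transcript by gene, exon length and the lengths of both flanking introns. Of the matched exons 78.6% ended in G, against 80.2% of 49101 exons of all D8 events matched the same way. The share ending in AG was 52.4% against 55.8%. The letters ACTAA were present on the transcribed strand in 7.14% of the matched exons and in 5.95% of all, and on either strand in 9.52% and 10.2%. These counts cover exons only, and the flanking introns were not analysed here. Median GC content was 47.2% in the set and 48.9% in all matched exons.

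The set's exons were more often whole codons long than the D8 table's exons as a whole. Of the 181 exons, 105 (58.0%) had a length that is a multiple of 3, against 40.2% of 56417 exons of all D8 events and 43.9% of those with a first-arm level between 5% and 95%. Among matched exons that lie fully in coding sequence, the count was 65 of 82 (79.3%) against 44.5%. The median length was 101 nt against 116 nt, and 11 exons (6.08%) were 27 nt or shorter against 1.27% of all and 2.45% of those at an intermediate first-arm level. The 255 exons that met the mirrored conditions, higher in the second arm at D8 and not at D0, gave 64.3% multiples of 3 and 9.02% of 27 nt or shorter. The 95 exons lower at both days gave 69.5% and 8.42%. These shares are descriptions without a test. Of the 126 matched exons, 82 were coding, 10 partly coding and 7 in a UTR. The other 27 matched only transcripts that are not annotated as protein coding, whose coding frames were not looked at.

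At D8 the median level of the set was 72.2% in the first arm and 38.9% in the second, with a median difference of -28.0 points. These values chose the members and carry no test. A difference of -30 points or lower was seen in 78 events, -40 or lower in 32 and -50 or lower in 20. In 27 events the exon was below 5% in the second arm, and in 20 it was at 95% or above in the first. The median depth was 125 junction reads per library in the first arm and 87 in the second. By the authors' deposited table, 182 of the 193 had an FDR under 0.05, where 1.98% of all events with the read minimum were lower with such an FDR. The FDR comes from the reads that chose the members, so nothing is read from this count. The members just inside the threshold were ZNF211 (-20.1 points), STX3 and ADNP (both -20.2), and just outside lay RECQL and AMZ2P1 (both -19.9) and MCOLN3 (-19.8).

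**Figure D1:**
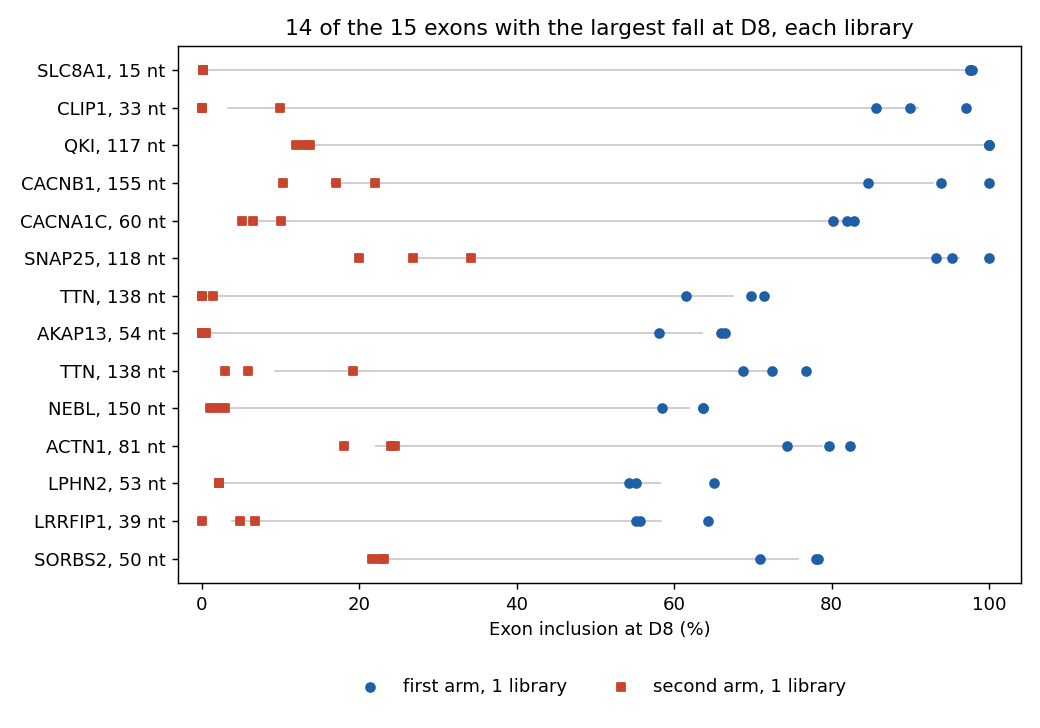
Percent inclusion (horizontal axis) of 14 of the 15 exons with the largest fall at D8, 1 event per exon, the one with most junction reads. Each blue circle is 1 of 3 first-arm libraries and each red square 1 of 3 second-arm libraries, and grey lines join the arm means. The arms do not overlap, as the choice requires, and run from SLC8A1 at 97.7% against 0.133% to SORBS2 at 75.7% against 22.5% on average.

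The largest loss was in the transcript of SLC8A1, the sodium-calcium exchanger of the heart cell membrane. Its 15-nt exon (hg19 chr2:40401846-40401860) was included at 97.9, 97.6 and 97.6% in the first arm and at 0.1, 0.2 and 0.1% in the second. For this pair of neighbours the switch was close to complete in every library. With another neighbour on one side the same exon averaged 51.6% and 0%, a difference of -51.6 points. The 60-nt exon of CACNA1C, the pore subunit of the cardiac L-type calcium channel, was at 82.9, 80.2 and 81.9% against 6.5, 10 and 5.1%. The 155-nt exon of CACNB1, a cytoplasmic subunit of such channels, was at 84.6, 93.9 and 100% against 17.1, 10.3 and 22%. Genes of calcium release were also among the hosts: the 24-nt exon of RYR2, the release channel of the sarcoplasmic reticulum, averaged 38.6% and 16.0%. In TRDN, which encodes triadin, a partner of that channel, the 18-nt exon averaged 35.8% and 5.53%, and a 60-nt exon 53.0% and 29.5%. The calcineurin catalytic subunit gene PPP3CA had its 30-nt exon at 66.6, 47.6 and 50.8% against 2.4, 3.3 and 3.1%.

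Several hosts encode proteins of the sarcomere and its Z-disc. Of 2 titin (TTN) exons of 138 nt each, one stood at 61.5, 71.4 and 69.7% in the first arm and 1.4, 0 and 0% in the second. The other stood at 68.8, 72.4 and 76.7% against 2.9, 19.2 and 5.9%. Both were low in every second-arm library. In NEBL, which encodes the Z-disc protein nebulette, the 150-nt exon was at 63.7, 63.7 and 58.4% against 1, 1.9 and 3%, and a 105-nt exon averaged 90.6% and 41.8%. The formin gene FHOD3, which acts in sarcomere assembly, had a 24-nt exon at 38.6, 49.2 and 36.3% against 0.7, 0.4 and 0.5%, and a 360-nt exon at 77.1% and 35.5% on average. In the cardiac troponin T gene TNNT2 the 9-nt exon was at 49.1, 52 and 44.4% against 24.3, 26.8 and 29%. The 126-nt exon of tropomyosin 1 (TPM1) was at 97.3, 96.2 and 96.3% against 70.5, 69.2 and 65.1%. In these last 2 genes the exon remained in a sizeable share of transcripts in the second arm.

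Actin-linking and adhesion genes gave further large losses. ACTN1 encodes alpha-actinin 1, which crosslinks actin. Its 81-nt exon was at 74.4, 82.3 and 79.7% in the first arm and 24, 24.5 and 18% in the second. SORBS2 encodes an adaptor that links actin to membrane complexes. A 50-nt exon of SORBS2 averaged 75.7% and 22.5%, and a 642-nt exon was at 48.7, 45.6 and 42.5% against 0.1, 0 and 0.1%. The long exon was nearly absent from the second arm, and the short one was partly kept. For LPHN2, an adhesion receptor of the latrophilin family, the 53-nt exon was at 65.1, 54.3 and 55.2% against 2.2% in each second-arm library. Integrin alpha 6 (ITGA6) had a 130-nt exon at 46.0% and 16.0% on average, and the membrane anchor gene ANK2 a 36-nt exon at 20.7% and 0%.

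Microtubule, traffic and signalling hosts followed. CLIP1 encodes a protein of growing microtubule ends, and its 33-nt exon was at 97.1, 85.7 and 90% against 0, 9.9 and 0%. CLASP2, another protein of microtubule ends, had its 51-nt exon at 47.6, 52.5 and 44.5% against 2, 0.5 and 2.4%. The 118-nt exon of SNAP25, a SNARE protein of membrane fusion, was at 95.3, 93.3 and 100% against 20, 34.2 and 26.8%. AKAP13 encodes an anchor of protein kinase A. Its 54-nt exon was at 66.5, 65.9 and 58.1% against 0.5, 0 and 0%. LRRFIP1 had a 39-nt exon at 64.3, 55.7 and 55.1% against 4.9, 6.7 and 0%, and a 66-nt exon that averaged 99.5% and 60.2%. MYO5A, a cargo-carrying myosin, had its 9-nt exon at 81.7, 84.3 and 81% against 65.2, 47 and 50.1%. DNM1L, which divides mitochondria, and PICALM, of clathrin coats, had exons of 33 nt (75.7% and 51.9%) and 103 nt (61.1% and 38.1%). RABGAP1L, a regulator of RAB proteins, lay near the threshold, with a 214-nt exon at 23.9% and 1.27%.

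Several splicing regulators were themselves hosts, among them QKI, the gene that the KO label names. The 117-nt exon of QKI (hg19 chr6:163899812-163899928), measured against 1 pair of neighbours, was at 100% in all 3 first-arm libraries and at 13.7, 11.9 and 13.1% in the second arm. With another upstream neighbour the same exon was at 99.8% and 97.6% at D8. The 43-nt exon of RBFOX2, a splicing regulator of muscle and brain, was at 33.4, 30.7 and 22.4% against 1.6, 1.9 and 2.3%. Its level depended on the neighbours: in 2 other events it averaged 77.7% and 25.7% (-52.0 points), and 65.5% and 15.3% (-50.3 points). The exon of its relative RBFOX1, also 43 nt, was at 80.6% and 52.8% on average. The 91-nt exons of CLK1 and CLK4, kinases that phosphorylate splicing factors, averaged 53.6% and 25.5%, and 72.9% and 39.5%.

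Some of the losses had a gain beside them. In 14 host genes, 14 exons of the set had another exon, between or around the same neighbours, that was higher in the second arm at D8. ACTN2, the muscle alpha-actinin, had a pair of 86-nt exons. The downstream one (hg19 chr1:236898935-236899020) was at 100, 99.9 and 99.9% in the first arm and 72.3, 71.5 and 69.4% in the second. With the other exon of the pair as its neighbour it averaged 99.8% and 40.6%, a difference of -59.2 points. The upstream one (hg19 chr1:236897733-236897818) averaged 0.133% and 28.1%. The 2 exons share 63 of 86 positions (73.3%). In CACNB1 a 20-nt exon went from 16.2% to 61%, and in KLC1, a kinesin light chain, a 51-nt exon from 27.7% to 81.9% beside a 131-nt exon that went from 43.5% to 16.3%. LPHN2 had a 129-nt exon at 76.7% and 99.1%, or at 3.43% and 93.7% with other neighbours. RBFOX2 had a 40-nt exon at 23.3% and 91.8%. Over the whole table, 400 gained events lay in 294 genes. Of the 153 host genes 20.9% held one, where 2.61% of 11258 genes with D8 events did; both counts come from the contrast that chose the exons.

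At D0 only part of the set could be measured. The same event was absent from the D0 table for 48 of the 193, and 116 had at least 20 reads per library in each arm. In these the median difference was -1.53 points, from -9.77 to 17.8, with 74 below 0, 41 above and 1 at 0. The rule set the lower limit. The libraries of the arms did not overlap in 28 events lower in the second arm and in 15 higher, where 6.27% and 4.75% of all D0 events were so. The 77 events not measured at D0 include 55 genes that host no measured event, with a median level in WT of 8.21 CPM (a count scaled to the size of its library) at D0 and 41.0 at D8. The 98 genes with a measured event had medians of 41.9 and 38.4 CPM. Of these, 13 were under 10 CPM at D0, against 31 of the 55. For 79 distinct exons the D0 table held the exon with other neighbours. Of these, 6 were lower there by 10 points or more with no overlap, in QKI, KLC1, KRIT1, PRR3, KIAA1217 and UBA1. Of all distinct exons with at least 20 reads per library in each arm at D0, 1.73% were so in at least 1 event. The QKI exon averaged 99.9% and 62.5% in that event.

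Over the 8 days the arms parted in several ways. The effective length of the skipping form, which enters the inclusion levels, was up to 150 at D0 and up to 100 at D4 and D8. The days thus differ in this setting too, and its part in the changes was not tested. In 53 of the 116 events the first arm moved by less than 20 points and the second fell by at least as much. In 32 the first arm rose and the second moved less than 20 points. Both fell in 12, both rose in 6, both moved by less than 20 points in 12, and in 1 (NPAS1) the first rose and the second fell. The PPP3CA exon went from 0.733% to 55.0% in the first arm and from 0.0667% to 2.93% in the second. The AKAP13 exon (6.7% to 63.5%, and 0% to 0.167%) followed the same course. The ACTN1 exon stood at 87.8% and 84.7% at D0 and at 78.8% and 22.2% at D8. Here the first arm kept the exon that the second arm lost.

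Both arms rose most for the 69-nt exon of SLC8A1, from 1.5% to 88.7% in the first arm and from 2.2% to 59.4% in the second. Its 107-nt exon (3.8% to 80.1%, and 2.4% to 53.4%), the 45-nt exon of OGDH, an enzyme of the citric acid cycle (2.0% to 76.5%, and 0.4% to 37.8%), and the 51-nt exon of KIAA1109 (15.3% to 82.3%, and 8.6% to 48.9%) moved alike. The largest falls in the first arm were in RABGAP1L (82.2% to 23.9%, and 83.4% to 1.27% in the second), in the Hippo pathway factor gene TEAD3 (98.8% to 49.0%, and 94.5% to 27.4%) and in the kinase gene SLK (96.5% to 51.8%, and 96.9% to 19.3%). Both arms share these directions, and differ in how far they went.

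**Figure D2:**
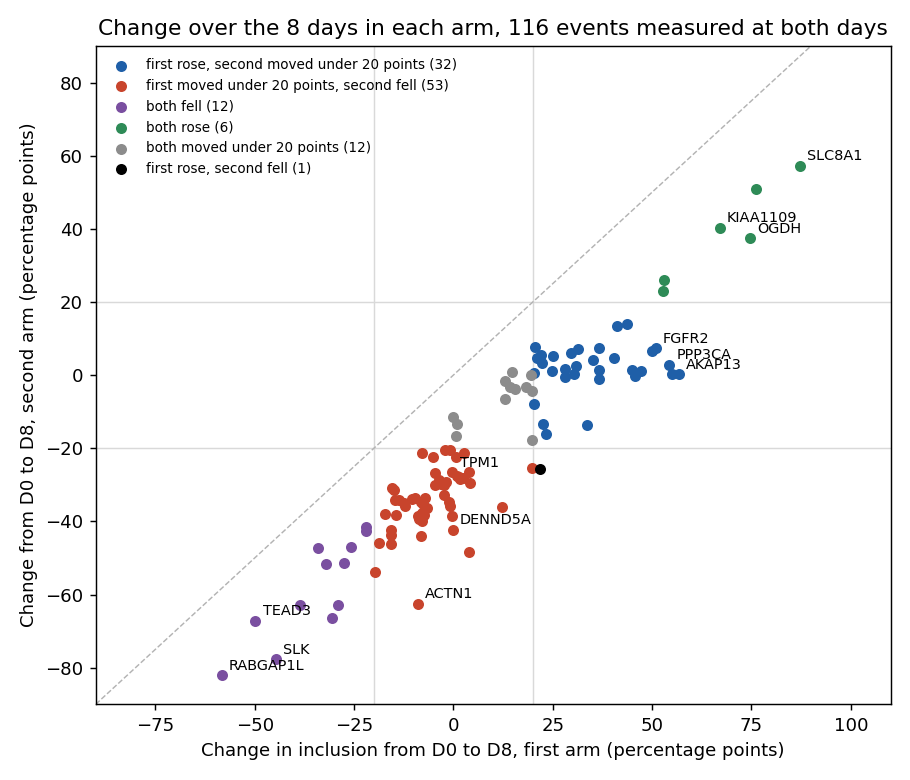
Change in percent inclusion from D0 to D8 in the first arm (horizontal axis) and in the second arm (vertical axis), in percentage points, for the 116 events measured at both days; colours give the course and the dashed line equal change. All points lie below the dashed line, which the choice of the exons fixes; 53 had a stable first arm and a falling second arm, and 32 a rising first arm and a second arm that moved less than 20 points.

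The D4 table was not used to choose the exons, and asks whether they already differed 4 days earlier. It held 153 of the 193 events, 130 with at least 10 reads per library in each arm. Of these 88 (67.7%) were lower in the second arm, against 46.6% of all D4 events, and the median difference was -3.50 points against 0.03. The libraries of the arms did not overlap for 46 lower events (35.4%), where 2.91% of all events were so, and for 5 higher events (3.85%), where 3.97% were. With limma on the logit of inclusion and a difference of at least 10 points, 2 events were lower, where 0.0661% of all events were, and 0 were higher. At an unadjusted p under 0.05, in either direction, there were 43 (33.1%), where 4.6% of all events were. On simulated differences of 20 points among 5000 events that fit recovered 6% of 200, so it missed most simulated differences of that size. By the authors' deposited table (FDR under 0.05 and 10 points) 26 were lower and 1 higher, where 0.537% and 0.556% of all events were. A fit with reads as weights over levels between 5% and 95%, added after the data were seen, called 13 of 110 lower, where 0.744% of all events were, and 1 higher. Over those levels 65.5% of the 110 were lower in the second arm, against 45.9% of all such events. In that fit 40 of the 110 (36.4%) had an unadjusted p under 0.05, and 1264 of all 12767. The shares without overlap were not taken over those levels.

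The QKI exon and the LPHN2 exon were the 2 that limma called lower at D4. QKI is the gene that the KO label names, and the part of that change in its own exon levels was not tested. The QKI exon was at 100% in each first-arm library and at 76.7, 76.7 and 78.5% in the second arm (logit difference -4.86, SE 0.047, adjusted p = 0.000112 by limma); the levels of 100% enter that fit at the bound of 99%. The LPHN2 exon was at 32.7, 42.4 and 48% against 1.6, 2.3 and 1.9% (logit difference -5.15, SE 0.29, adjusted p = 0.0167 by limma). The arms did not overlap in either. With another upstream neighbour the QKI exon averaged 99.7% and 58.8% at D4. The count was 1 without library 2 of the second arm. Only 1 of these 2 events was still called without library 2 of the first arm, or without each second-arm library in turn. Bounds of 0.001 and 0.05 also kept only 1 of them.

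Other exons showed wide gaps between the arms that limma did not call. GIT2 encodes a regulator of ARF proteins at adhesions. Its 90-nt exon was at 49.6, 59.6 and 58.7% in the first arm and at 8.2, 1.7 and 4.2% in the second (adjusted p = 0.145 by limma, and 0.00715 in the weighted fit). The 9-nt exon of AP1G1, a subunit of the AP-1 coat, was at 46.2, 57 and 55.6% against 10.7, 12.4 and 5.8% (0.101 and 0.00381). The AKAP13 exon was at 47.3, 41.8 and 40.8% against 3.5, 0 and 0% (0.0882 and 0.105). These 3 were called lower by the authors' deposited table. So were the exons of the lipoprotein receptor gene VLDLR (84 nt, -34.8 points), the growth factor gene NRG1 (51 nt, -34.3), KIAA1109 (-29.8), the ubiquitin ligase gene FBXW11 (162 nt, -27.9), the RAP activator gene RAPGEF6 (24 nt, -27.2) and the nuclear envelope gene SUN1 (111 nt, -27.1). The RAPGEF6 exon had no inclusion read in the second arm, at 20 junction reads per library. The RBFOX2 exon averaged 3.4% and 0% (adjusted p = 0.0299 by limma), which is less than 10 points. With another neighbour on one side it averaged 14.5% and 0%, a difference of -14.5 points with an FDR of 0.00156 in the authors' deposited table, at 27.3 and 7.0 reads per library, which is under the minimum for the counts above.

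Among events with at least 10 reads per library in each arm, the largest positive differences of the set at D4 were in SETMAR, FGFR2 and TRAPPC13. The 332-nt exon of SETMAR, a histone methyltransferase gene fused to a transposase, was at 42.9, 47.5 and 49.1% in the first arm and at 78.4, 83.3 and 57.9% in the second. The 148-nt exon of FGFR2, a fibroblast growth factor receptor gene, was at 18.3, 14.2 and 13.6% against 37.8, 38.3 and 45.1% (adjusted p = 0.0819 by limma, and 0.00113 in the weighted fit). It is the 1 event that the authors' deposited table calls higher. At D8 the same exon was lower in the second arm, at 60.2% and 24.3% on average. The TRAPPC13 exon of 18 nt was at 22.3, 34.6 and 24.4% against 32.6, 57.7 and 45.9%, where the arms overlapped.

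**Figure D3:**
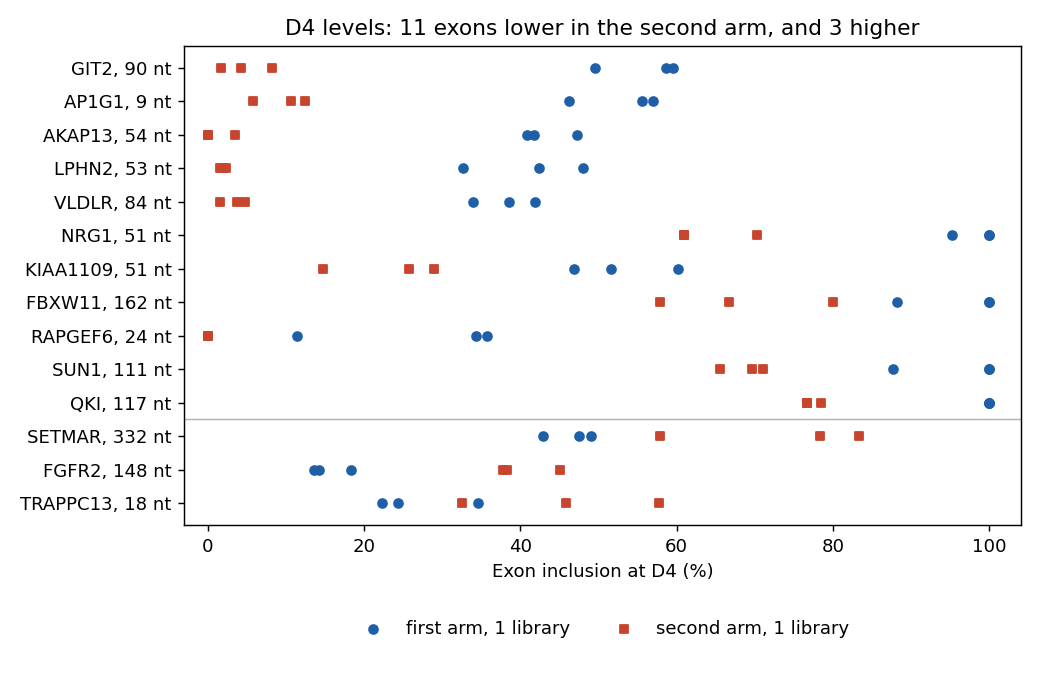
Percent inclusion at D4 (horizontal axis) in each of 3 first-arm libraries (blue circles) and 3 second-arm libraries (red squares), for 10 exons that the authors' deposited table calls lower and the QKI exon, and, under the grey line, the 3 exons with the largest positive difference among events with at least 10 reads per library in each arm. GIT2 averaged 56.0% and 4.7%, while FGFR2 averaged 15.4% and 40.4%.

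In 293T cells with or without the siRNA, 113 of the events were in the table and 70 had at least 10 reads per library in each arm. Of these 44 (62.9%) were lower in the second arm, against 47.4% of all events, with a median of -1.62 points. The arms did not overlap for 12 lower events (17.1%), where 2.56% of all were so, and for 4 higher ones (5.71%), where 4.16% were. With limma 1 was lower, where 0.04% of all events were, and 10 of the 70 (14.3%) had an unadjusted p under 0.05 in either direction, where 4.64% of all events had. The authors' deposited table had 5 lower, where 0.175% of all were, and the added weighted fit called 3 of 53, where 0.216% of all were. Over the levels of that fit 62.3% of the 53 were lower in the second arm, against 43.8% of all such events. An unadjusted p under 0.05 in that fit was seen for 7 of the 53 (13.2%) and for 914 of all 9733.

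The exon called by limma was the 35-nt exon of MACROD1, which encodes an ADP-ribose hydrolase. It was at 74.5, 71.8 and 76.1% in the first arm and 51.5, 47.2 and 45.3% in the second (logit difference -1.64, SE 0.14, adjusted p = 0.0479 by limma). Leaving out any library but 1 ended this count at 0, and without library 1 of the second arm it was 2. The exons of 51 and 48 nt in UAP1, an enzyme gene of nucleotide sugar synthesis, end at the same base and share their sequence. They were at 50.1, 53.9 and 62.3% against 28.7, 23.4 and 26.5%, and at 37.6, 49.9 and 53.7% against 20.7, 19 and 13.8%. The GIT2 exon was at 48.3, 41.6 and 77.4% against 17.2, 10.2 and 26%, and the 35-nt exon of NDEL1, a dynein regulator, at 32.2, 18 and 28.8% against 6.9, 2.2 and 2.8%. These arms did not overlap either. Among those higher in the second arm, the 126-nt exon of DNMT3B, a DNA methyltransferase of stem cells, was at 66.1, 83 and 68.4% against 94, 88.1 and 89.7%. The 110-nt exon of RP11-267N12.3 differed by 12.4 points and the 542-nt exon of PREPL by 11.8, with arms that overlapped. The SLC8A1, CACNA1C, TTN and NEBL exons had no event with 10 reads per library in each arm there.

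**Figure D4:**
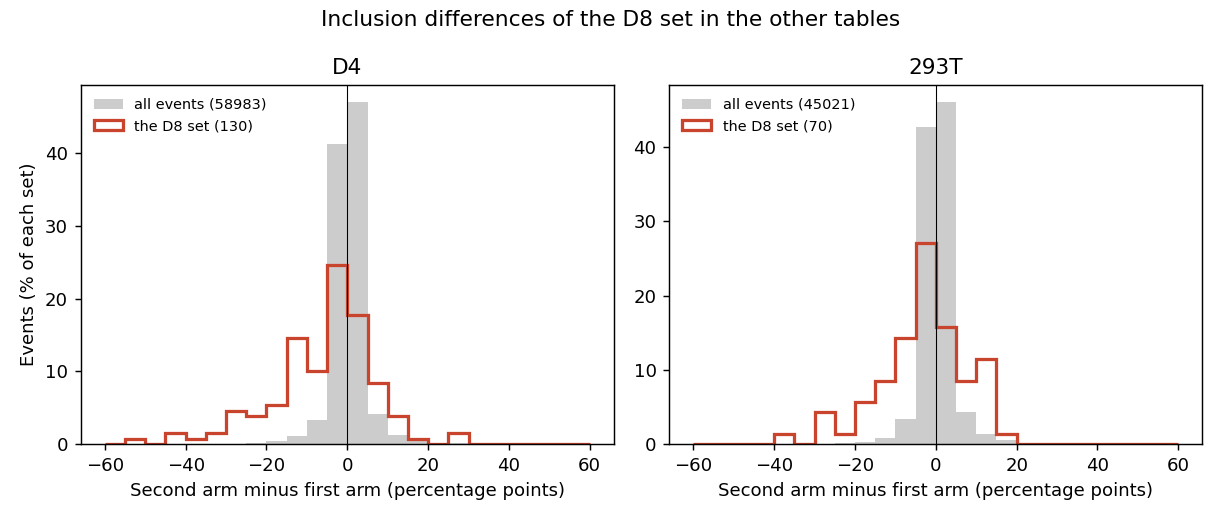
Differences in percent inclusion, second minus first arm in percentage points (horizontal axis, bins of 5 points), as a percent of events (vertical axis), for all events with at least 10 reads per library in each arm (grey) and for the D8 set (red line). The set is shifted below 0 at D4, with a median of -3.50 points, and less so in 293T, with a median of -1.62 points.

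QKI itself was counted in every whole-cell and nuclear library. At D0 it was at 300, 294 and 286 CPM in WT and at 41.3, 41.3 and 35.5 in KO. At D4 it was at 144, 139 and 156 CPM in WT and 88.5, 68.2 and 78.0 in KO, a log2 fold change of -0.90 (SE 0.09, adjusted p = 1.6e-07 by edgeR). At D8 the WT libraries held 368, 319 and 285 CPM and the libraries labelled KO 340, 329 and 336, so the gene count goes against the label there. In nuclear RNA QKI had 187, 139 and 152 CPM with the WT label and 473, 534 and 509 with the KO label (log2 1.66, SE 0.17, adjusted p = 7.9e-10 by edgeR). Junction reads of QKI in the second arm, scaled to the arms' totals, were 4.18% to 8.24% of those in the first at D0. They were 17.1% to 55.1% at D4 and 15.6% to 24.4% in 293T. At D8 they ran from 13.6% to 186% over the gene's events, and differed along the gene. Events of the 143-nt exon (hg19 chr6:163876311-163876453), or with it as the upstream neighbour, were at 13.6% to 19.3%. The other D8 events of QKI were at 60.3% to 186%. Bulk RNA does not tell fewer cells of a type from less RNA per cell.

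Most host genes did not pass the test at D4. Of 152 tested, 38 were higher in KO and 23 lower by edgeR, where 16.3% of all genes were higher and 12.0% lower. Scaled by totals, not TMM, these were 49 and 16. The largest rise with at least 10 CPM was SORCS1, a sorting receptor gene, with means of 8.3 ± 1.0 (WT) and 27.5 ± 2.5 CPM (KO; SD, n = 3; log2 1.72, SE 0.16). NRG1 (log2 0.87), EMID1 (0.73), SLC7A2 (0.69) and C1QTNF6 (0.55) came next. LIMCH1 (-1.36), RABGAP1L (-0.86), SYT7 (-0.73) and DNMT3B (-0.71) were lower, all at adjusted p under 0.05 by edgeR. GIT2 and LPHN2, whose exons differed widely at D4, changed by -0.38 and -0.21 as genes (adjusted p = 0.00019 and 0.040 by edgeR).

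In nuclear RNA at D8 the host genes leaned to higher levels in the libraries labelled KO. Of 152 tested, 120 were higher and 10 lower by edgeR, where 31.2% of all genes were higher and 32.8% lower. Scaling by totals gave 79 and 18. It moved the median log2 change over all genes from -0.27 to -0.72, while that of the host genes moved from 0.79 to 0.33. The host genes had met a junction-read minimum at D8 that was not asked of all genes. Lists made up mostly of genes outside the set leaned alike, so the lean is not particular to the set. Of 47 membrane traffic genes 41 were higher and 1 lower by edgeR. Of 44 transcription and signalling genes these were 41 and 2, and of 54 cytoskeleton and adhesion genes 46 and 4. Cardiomyocyte markers moved the same way: their sums were 17715 to 24280 CPM (WT) and 66144 to 79460 CPM (labelled KO), and 16 of 16 were higher by edgeR. Library 2 of the nuclear libraries labelled KO stood apart, with endoderm sums of 496 CPM against 200 to 227 in the other 2 and epithelial sums of 2784 against 1532 to 1545. Without it 119 host genes were higher and 12 lower. The part of these markers in the host gene counts was not tested. SLC8A1 averaged 294 ± 43 CPM (WT) and 1492 ± 100 CPM (labelled KO; SD, n = 3; log2 2.34, SE 0.20, adjusted p = 2.2e-11 by edgeR). CACNA1C (2.28), RYR2 (2.05), TNNT2 (2.03) and the receptor phosphatase gene PTPRD (1.93) also rose. TNC, the matrix protein tenascin C, was the largest fall, from 317 ± 55 to 47.0 ± 19 CPM (log2 -2.75, SE 0.20). LPHN2 (-0.44), LDB2 (-0.43), LRRCC1 (-0.43) and DNMT3B (-0.42) were called lower by edgeR but not by DESeq2 or without a filter, with adjusted p from 0.212 to 0.499.

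From D0 to D8 in WT, 82 host genes rose and 51 fell by edgeR, where 44.5% of all genes rose and 37.5% fell; total counts shifted the median of all genes from 0.15 to 0.32. TTN rose by 7.88 on the log2 scale, ACTN2 by 7.44, SLC8A1 by 5.90 and NEBL by 5.46. DNMT3B fell by 3.85 and RABGAP1L by 2.53. In whole-cell RNA at D8 the median host gene differed by 0.02 between the labelled genotypes, which is a description of the libraries that chose the exons. There ACTN2 averaged 402 ± 94 CPM (WT) and 95.5 ± 9.0 CPM (labelled KO), and SLC8A1 393 ± 87 and 613 ± 31 (SD, n = 3).

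Among other splicing regulators, RBFOX2 was higher in KO at D4 (log2 0.23, SE 0.07, adjusted p = 0.0101 by edgeR) and in nuclear RNA (1.74, SE 0.15). RBM24, a muscle splicing regulator, changed by 0.41 at D4 (adjusted p = 0.0356 by edgeR), but by DESeq2 and without WT library 1 or 2 or any KO library its adjusted p lay between 0.063 and 0.210. In nuclear RNA RBM24 rose by 2.29. MBNL1, a regulator of muscle exons, fell by 0.70 at D4 and rose by 1.37 in nuclear RNA. ESRP1, of epithelial exons, was at 0.07 at D4 and 0.06 in nuclear RNA, and passed the test in neither. Of 18 muscle splicing regulators 4 rose and 4 fell at D4, where 16.3% and 12.0% of all genes did. In nuclear RNA 13 rose and 4 fell, where 31.2% and 32.8% of all genes did, beside the shift in cardiomyocyte markers given above.

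**Figure D5:**
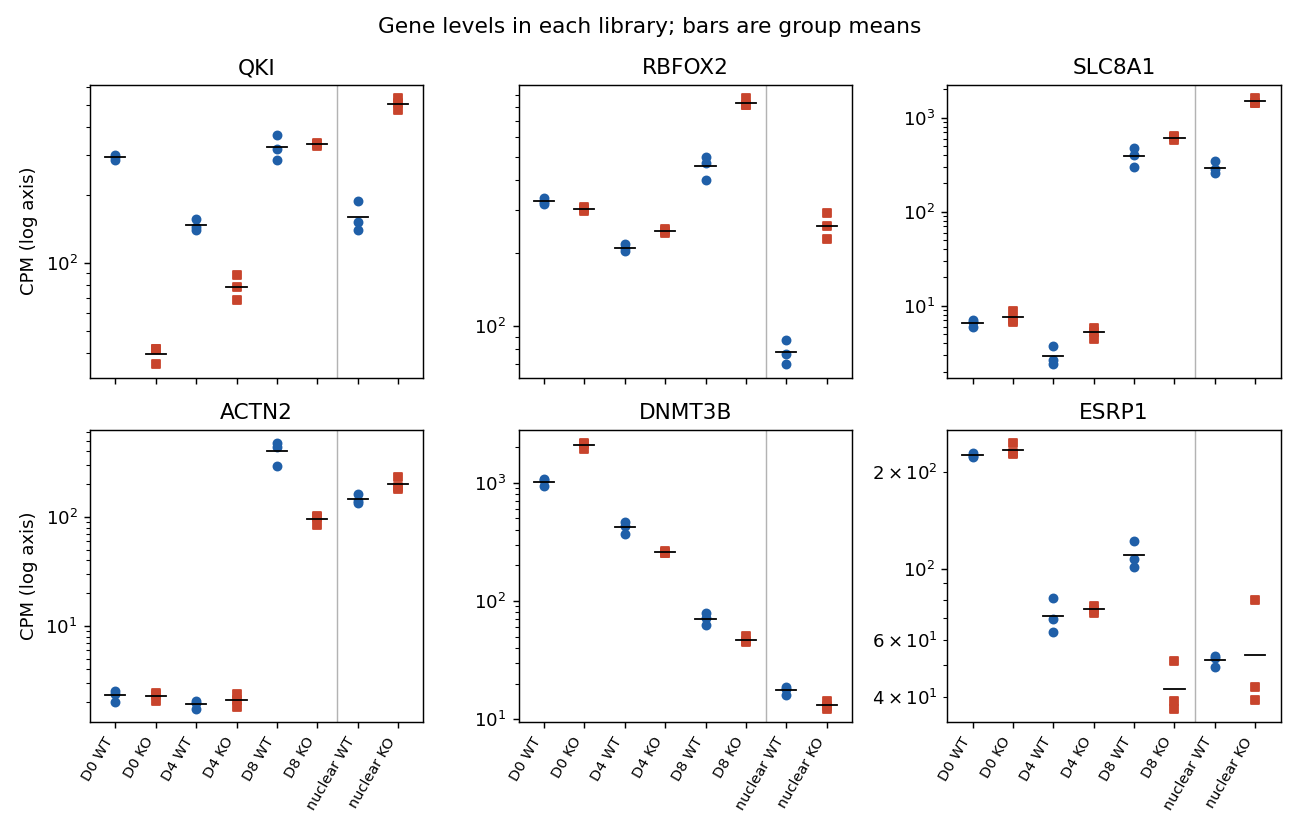
Level of 6 genes in CPM (vertical log axis, a separate range for each gene) in each library; blue circles are WT, red squares the libraries labelled KO, black bars the means of 3 libraries, and the 2 groups right of the grey line are nuclear RNA. QKI is low in KO at D0 (39.4 CPM) and not at D8 (335 CPM in KO, 324 in WT).

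Markers of other cell types moved with the labelled genotype at D8, beside all the D8 differences above. The summed level of 16 cardiomyocyte genes was 11527 to 19735 CPM with the WT label and 31302 to 36810 with the KO label. Their median log2 change was 1.23, but ACTN2, which is among them, was lower with the KO label, as given above. For 18 epithelial genes the sums were 5896 to 7900 and 3573 to 4052. For 13 genes of surface ectoderm and amnion they were 1121 to 1956 and 464 to 521, and for 11 pluripotency genes 1528 to 1983 and 642 to 751. Endothelial sums were higher with the KO label (301 to 362 and 633 to 695 CPM). So were endoderm sums (166 to 243 and 331 to 482) and smooth muscle and fibroblast sums (1197 to 1411 and 1944 to 2223). The endothelial genes did not rise as a group, with a median log2 change of 0.35. In nuclear RNA 1 of 6 endothelial genes was higher and 5 lower by edgeR (median -0.85). There KDR alone held 418 to 467 CPM of KO sums of 448 to 490. Neural sums overlapped (828 to 988 and 927 to 1069). TFAP2A, a factor of surface ectoderm, averaged 173 ± 37 CPM (WT) and 1.46 ± 0.52 CPM (labelled KO), and POU5F1, the pluripotency factor, at 54.4 ± 9.2 and 2.86 ± 0.72 (SD, n = 3). At D4 the surface ectoderm and amnion sums were 206 to 244 and 302 to 307 CPM, and the cardiomyocyte sums 316 to 368 and 421 to 536. The endothelial sums were 201 to 236 in WT and 438 to 492 in KO, the endoderm sums 99.2 to 111 and 257 to 276, and the pluripotency sums 2715 to 2988 and 2282 to 2314 CPM. By edgeR, 5 of 6 endothelial genes tested (median log2 2.08) and 7 of 8 endoderm genes (median 1.36) were higher in KO at D4 and none of either list lower. Of the 11 pluripotency genes 1 was higher and 7 lower, of the 13 surface ectoderm and amnion genes 3 higher and 4 lower, and of the 16 cardiomyocyte genes 6 higher and 2 lower. Over all genes 16.3% were higher and 12.0% lower. The part of these markers, and of CHIR dose, in the exon differences was not tested.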

How the data were processed

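The exons, gene lists and comparisons were chosen with earlier results of these data known. The authors deposited 4 skipped-exon tables in rMATS format (D0, D4, D8, 293T) with junction read counts, inclusion levels as a fraction, p-values and FDR, for 2 unnamed arms of 3 libraries. The authors also deposited raw read counts per gene for 18 whole-cell and 6 nuclear libraries. The build is hg19, and STAR, featureCounts, UMI-tools, cutadapt and DESeq were used, per the submitters' processing notes; versions, strand setting and annotation release are not stated there. Differences are second minus first arm.

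Whole-cell libraries held 40001076 to 89948185 counts and nuclear libraries 6549676 to 15030590. Junction reads per library were 73459093 to 99153168 at D0, 22216683 to 29823620 at D4, 57647929 to 83945661 at D8 and 10033923 to 15726125 in 293T.

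D4 and 293T events with a mean of at least 10 reads per library in each arm were tested with limma 3.58.1 (R 4.3.3) on the logit of inclusion bounded at 0.01, with Benjamini-Hochberg adjustment over all events, a threshold of 0.05 and a difference of at least 10 points. Gene counts were fitted with edgeR 4.0.16 (filterByExpr, TMM, quasi-likelihood test, two-sided, adjusted p under 0.05 over all genes), with all whole-cell libraries in 1 fit and the nuclear libraries in another; DESeq2 1.42.0 was an alternative. On simulated counts, 87.5% of 200 genes changed 2-fold were recovered at D4, 68% in nuclear RNA and 85.5% for WT D8 against D0. Named were the 15 largest falls at D8, members nearest the threshold, the strongest calls and rises at D4 and in 293T, up to 5 hosts per list, up to 5 exons of 27 nt or shorter, the 4 largest first-arm changes in each direction, and host genes and splicing regulators. Exons of CLK1, CLK4, RBFOX1 and the exon pairs were named after their values were seen. Results of some genes that this rule names are not reported here.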

Additional observations from a re-analysis of the deposited data

Results flagged for a closer look

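Of 65 events measured both at D4 and in 293T, 1 had arms that did not overlap in either table but moved in opposite directions. The 100-nt exon of ENOSF1 was at 49.4, 52.6 and 50.9% in the first arm at D4 and at 43.3, 35.7 and 34.7% in the second, a difference of -13.1 points. In 293T it was at 57.4, 68.7 and 59.9% in the first arm and at 69.2, 72.6 and 74.3% in the second, a difference of 10.0 points. The difference between the tables was not tested. The 2 tables come from different cells, and ENOSF1 had 25 and 37 junction reads per library in the arms of 293T.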

How the results depend on the processing

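The number of events at D8 was 193, and became 622 with a difference of -10 points and 78 with -30; the other read minimums, D0 limits and a stricter handling of D0 levels, added later, gave 142 to 284, and leaving out each library in turn 212 to 245. At D4, limma called 2 events lower: 1 with a bound of 0.001, 4 with 0.05, 26 by the authors' FDR, 13 with the added weights, and 1 to 3 leaving out each library. In 293T it called 1: 0 with 20 reads, 0 with either bound, 5 by the authors' FDR, 3 with the added weights, and 0 to 2 leaving out each library. The count of host genes called, higher and lower together, stayed within 1.5 times under all alternatives run. By direction it moved more in nuclear RNA, where 79 to 123 were higher and 3 to 18 lower. Of 390 alternatives for 39 gene results, 354 kept direction and call, 30 lost the call, 1 gained it and 5 reversed, and 30 of the 39 results had no change. All reversals were of ESRP1, which the main test did not call: in nuclear RNA -0.42 with total counts and -0.014 with the replicate block, and leaving out each library in turn its values ran from -0.012 to 0.17 at D4 and from -0.34 to 0.30 in nuclear RNA. The cause was not tested.

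Same-numbered libraries did not deviate together (correlations of 0.03, 0.04 and -0.00 at D4 and -0.17, -0.14 and 0.02 in nuclear RNA). Whether they were cultured or prepared together is not stated in the labels, and the main fits used no block. With the number as a block, 61 host genes were called at D4 (61 without), 125 in nuclear RNA (130) and 134 for WT D8 against D0 (133). Of 200 simulated differences of 20 points at D4, the test recovered 6% and the weighted fit 56%. The simulations held 5000 and 1096 events, where the real fits held 58982 and 12767, and their spread between libraries was set by hand. A larger share of changed events makes the adjustment more lenient, so these are not the recoveries of the real fits. None were simulated for 293T.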
